A study of Mus musculus with 16 samples.

Results

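Fatty acid synthesis from glucose was followed in mouse epididymal fat through 10 genes, of 27150 in the deposited mRNA table: the enzymes Acly, Acaca, Acacb, Fasn, Elovl6, Me1, G6pdx and Pgd and the transcription factors Srebf1 and Mlxipl. They were chosen by name as the textbook core of the pathway, with earlier results of these data known. The counts of all transcripts carrying a gene's identifier were summed. All 10 passed the filter on low counts that left 17535 genes. Epididymal fat is the visceral white fat pad along the epididymis. RNA was sequenced in 16 libraries from male C57BL/6 mice, bought at an age of 6 weeks and a weight of about 22 g. The metformin group received a high-fat diet (HFD, 60% fat) for 8 weeks and then the antidiabetic biguanide metformin for 6 weeks. The resveratrol group received the same diet and then the plant polyphenol resveratrol for 6 weeks. The HFD group received the diet without a drug, and the normal diet group neither the diet nor a drug. Whether the HFD was continued during the drug weeks, which doses were given and how old the mice were at dissection is not stated in the labels. Each group has 4 libraries, and nothing in the labels says whether a library is 1 mouse or a pool, so a p-value covers the spread between libraries, which may be technical.

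Cytosolic fatty acid synthesis starts from citrate that leaves the mitochondria and is split to acetyl-CoA. Acetyl-CoA carboxylase makes malonyl-CoA from it, fatty acid synthase builds palmitate from malonyl-CoA with NADPH as the reductant, and an elongase lengthens the product. The transcription factors SREBP1, encoded by Srebf1, and ChREBP, encoded by Mlxipl, drive these genes in response to insulin and glucose in liver and fat.

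Library make-up was examined first. The 10 adipocyte markers, all measured, summed to 17660 to 31500 CPM (counts scaled to a common library total) in metformin, 25640 to 33800 in resveratrol libraries 1 to 3, 23540 to 29290 in HFD and 24210 to 35790 in normal diet libraries. Resveratrol 4 had 1016 CPM, with 12130 CPM of the epididymal gene Crisp1, and was left out of the comparisons, which therefore hold 15 libraries. Crisp1 was also at 15.19 to 16.32 CPM in all 4 metformin libraries, and at most 0.178 CPM in the other libraries of the comparisons. Epididymis principal cell markers, 8 of 10 measured, summed to 25.72 to 52.62 CPM in metformin libraries. They summed to 38.42 CPM in normal diet 2 and at most 6.99 CPM in the others compared. Where these transcripts came from was not tested. One HFD and one metformin column carry a code that matches no sample title. These 2 libraries were kept in their groups under the names metformin unmatched and HFD unmatched. The codes of HFD 1 to 3 begin alike, and that of HFD unmatched begins differently. Normal diet 1 to 3, metformin 1 and unmatched, and resveratrol 1 and 2 also share a beginning. The labels do not say what it stands for, so whether these libraries are independent of each other was not tested. The sum of the 10 macrophage markers, also all measured, was 785.3 to 1068 CPM in metformin and 877.2 to 979.5 CPM in resveratrol libraries. It was 3300 to 3870 CPM in HFD 1 to 3 and 1164 CPM in HFD unmatched, against 864.3 to 1572 CPM in normal diet libraries, so the HFD group is not uniform in these markers. The markers did not all move alike. Cd163 was lower in HFD 1 to 3, at 84.21 to 104.2 CPM against 144.4 to 238.5 CPM in normal diet libraries, and Cd14 overlapped. The remaining markers were above every normal diet library in HFD 1 to 3, with Gpnmb the largest at 990.9 to 1267 CPM. No macrophage marker was at 0 in any library. The adipocyte markers moved in both directions too. Cfd was at 446.7 to 780.8 CPM in HFD 1 to 3, against 4913 to 7443 CPM in normal diet libraries. Pnpla2 and Retn were also below every normal diet library in HFD 1 to 3, Plin1 and Lpl were above, and the remaining adipocyte markers overlapped. How far the adipocyte sum reflects the number of adipocytes was not tested. Markers of ciliated epithelium, 9 of 10 measured, summed to 338.6 to 1070 CPM in metformin 2, 4 and unmatched, 421.5 CPM in resveratrol 2 and 699.3 CPM in normal diet 2, against at most 30.78 CPM in the other 10. Liver markers, 7 of 7 measured, summed to 1267 to 2872 CPM in metformin, 1235 to 2144 CPM in resveratrol 1 to 3, 185.5 to 268 CPM in HFD 1 to 3, 1571 CPM in HFD unmatched and 2858 to 4078 CPM in normal diet libraries. Among them Cyp2e1 had 149.3 to 223.2 CPM in HFD 1 to 3 and 2445 to 3980 CPM in normal diet libraries. The 7 mesothelial markers, all measured, summed to 60.29 to 163.2 CPM in metformin, 16.85 to 285.8 CPM in resveratrol 1 to 3, 25.91 to 68.68 CPM in HFD 1 to 3, 289.8 CPM in HFD unmatched and 122.3 to 216.3 CPM in normal diet libraries. Spermatogenic cell markers summed to 1382 CPM in metformin 2. Retina markers, listed because the extraction text of the labels names that tissue, reached at most 15.07 CPM. Skeletal muscle markers, listed because the treatment text names muscle, reached at most 113.8 CPM, in normal diet 1. Total mRNA counts were 13350585 to 20531032 per library, and a member had from 260 (Elovl6) to 112232 counts (Fasn) in a library.

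On a scale that allows genes to be compared, CPM per kilobase of transcript, Fasn had the highest mean in every group. Its spread in normal diet libraries was wide. Its level averaged 327.3 ± 125.9 CPM per kilobase in metformin, 318.6 ± 19.54 in resveratrol, 503.8 ± 108.1 in HFD and 409.5 ± 351 in normal diet libraries (SD, n = 4, 3, 4 and 4). The 3 NADPH enzymes followed in HFD libraries, with Me1 at 193.2 ± 46.89, Pgd at 187.9 ± 31.59 and G6pdx at 170.2 ± 13.33 CPM per kilobase, values whose SDs overlap. In normal diet libraries the carboxylases had the next highest means, with Acacb at 120.2 ± 12.69 and Acaca at 107.1 ± 54.72 CPM per kilobase. Me1 followed at 99.48 ± 47.81, and the SDs of these values overlap. Counts of a pseudogene that may share reads with Acaca, described below, are not included. Mlxipl and Elovl6 were the lowest in all 4 groups, at 13.79 to 19.82 and 4.148 to 8.186 CPM per kilobase.

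The comparison of HFD with the normal diet asks what the diet did to the pathway in fat. The genes did not move as a block: both carboxylases fell, to 0.355 (Acaca) and 0.294 (Acacb) of their normal diet levels in the model, the NADPH enzymes Pgd, G6pdx and Me1 rose by 1.94 to 2.57 times, and Srebf1 rose by 1.49 times. Acly, Fasn, Elovl6 and Mlxipl did not pass the test. Thus 6 of 10 genes were called, 4 higher and 2 lower, at an adjusted p under 0.05 over all genes tested (edgeR quasi-likelihood test, Benjamini-Hochberg), while 23.1% of all genes were called in this comparison, 13.8% higher and 9.34% lower. The groups did not overlap for 5 of the 10 genes, against 27.8% of all genes. The median log2 fold change was 0.27 over the 10 genes and -0.04 over all genes.

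**Figure D1:**
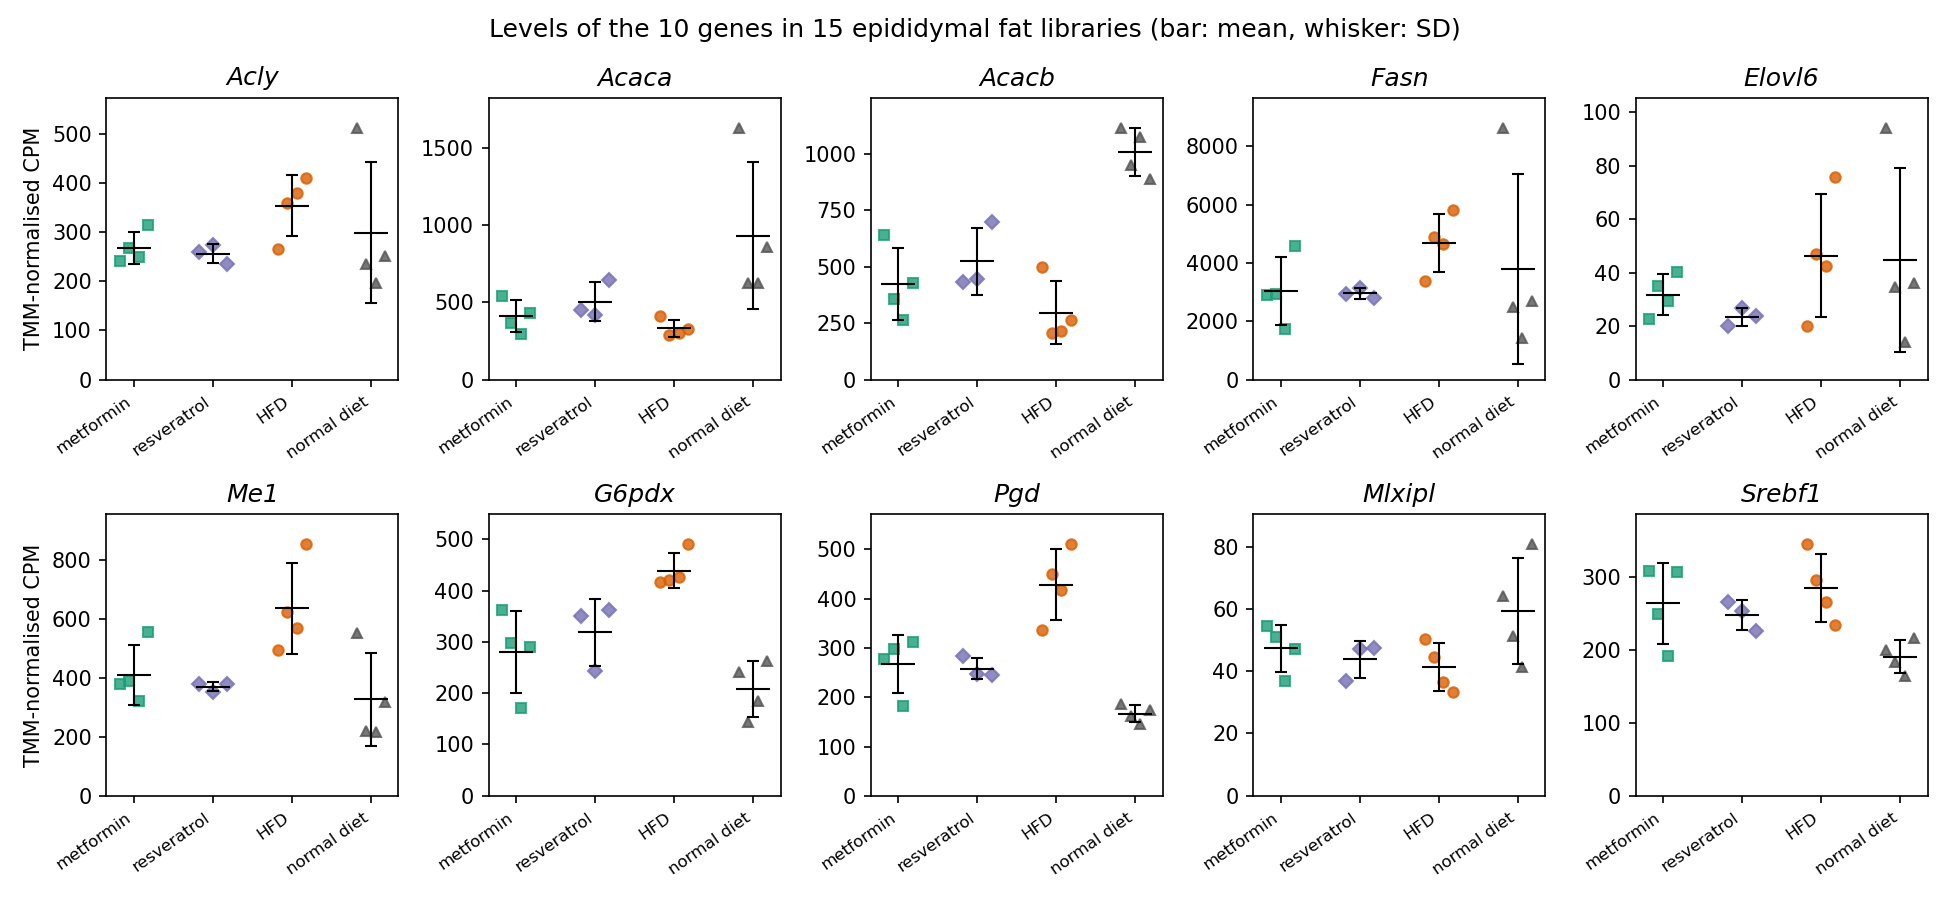
Levels of the 10 genes in TMM-normalised CPM (vertical axis, from 0), one point per library, with the mean (bar) and SD (whisker) of each group. Acaca, Acacb, Pgd, G6pdx and Srebf1 separate the HFD from the normal diet libraries without overlap. Normal diet 1 lies far above the other normal diet libraries for Fasn, Acly, Elovl6, Acaca and Me1.

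The enzyme that supplies the carbon, ATP-citrate lyase, is encoded by Acly (chr11:100476353-100528000, GRCm38). Acly had 265.5, 359.5, 378.6 and 409.9 CPM in HFD unmatched, 1, 2 and 3, against 511.3, 235.4, 195.6 and 251.9 CPM in normal diet 1 to 4. The HFD libraries lay above 3 of the normal diet libraries and below the first. The log2 fold change was 0.24 (SE 0.249, adjusted p = 0.499, edgeR). Without normal diet 1 it was 0.63 with an adjusted p of 0.0153.

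Acaca and Acacb encode the cytosolic acetyl-CoA carboxylase ACC1, whose malonyl-CoA feeds synthesis, and ACC2 at the mitochondrial outer membrane, whose malonyl-CoA restrains fatty acid entry into mitochondria. Acaca (chr11:84129672-84401651) had 408.2, 289.4, 301.9 and 324.9 CPM in HFD unmatched, 1, 2 and 3, against 1627, 621.8, 622.1 and 857.2 CPM in normal diet 1 to 4. Every HFD library lay below every normal diet library, and normal diet 1 was the highest of all. Acaca fell by 1.49 on the log2 scale (SE 0.302, adjusted p = 0.00466, edgeR).

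Acacb (chr5:114146535-114250761) had 500.6, 206.8, 213 and 263.5 CPM in HFD unmatched, 1, 2 and 3, against 1114, 948.9, 1077 and 887.6 CPM in normal diet 1 to 4. The groups were far apart, with HFD unmatched nearest to the normal diet libraries. Acacb fell by 1.77 on the log2 scale (SE 0.319, adjusted p = 0.00256). In these bulk samples fewer cells of a type and less RNA per cell cannot be told apart. HFD unmatched, with a macrophage marker sum within the normal diet range, had the highest Acaca and Acacb levels of its group. With this library left out, Acacb fell by 2.16 on the log2 scale. The liver and mesothelial marker sums, like Acacb, were lower in HFD 1 to 3 than in HFD unmatched and in the normal diet libraries. Cyp2e1 made up most of the liver sum in normal diet libraries. Of the other liver markers, Alb, Apoa1 and Tat were lower in HFD 1 to 3 than in every normal diet library. Apob, Ttr and Fgb were higher in HFD 1 than in normal diet 1, at 17.74, 6.208 and 1.823 against 16.18, 2.097 and 1.049 CPM. The part of macrophage, liver or mesothelial transcripts in the falls of Acaca and Acacb was not tested.

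Reads of Acaca may be shared with a pseudogene. Gm5182, which RefSeq lists as a pseudogene on chromosome 12, had 48.8 to 62.7 counts per 100 counts of Acaca in the 15 libraries and followed Acaca with a Pearson r of 0.995. With its counts added to Acaca, the gene fell by 1.56 on the log2 scale (adjusted p = 0.00466), an alternative chosen after seeing the data. For Me1 the pseudogenes Gm7049 and Gm7329 had 14 to 16.6 and 2.19 to 2.9 counts per 100, and with them added the log2 fold change was 0.96 (adjusted p = 0.0278).

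Fasn (chr11:120805846-120824547) encodes the synthase. It had 3380, 4883, 4644 and 5818 CPM in HFD unmatched, 1, 2 and 3, against 8623, 2486, 1411 and 2698 CPM in normal diet 1 to 4. Normal diet 1 exceeded every HFD library, and the other 3 lay below all of them. The log2 fold change was 0.30 (SE 0.455, adjusted p = 0.663). Without normal diet 1 the value was 1.08 with an adjusted p of 0.0329, so this single library decides the call. Normal diet 1 had the lowest depth and the highest adipocyte and muscle marker sums, and the part of these in its Fasn level was not tested.

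Elovl6 (chr3:129532355-129638495), which elongates palmitate to stearate, had 20.1, 46.8, 42.7 and 76 CPM in HFD unmatched, 1, 2 and 3, against 94, 34.5, 13.9 and 36.2 CPM in normal diet 1 to 4. Both groups spread over several-fold and overlapped. The log2 fold change was 0.06 (SE 0.477, adjusted p = 0.945).

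NADPH for synthesis comes from the pentose phosphate pathway and from malic enzyme. Pgd (chr4:149149991-149166771) encodes 6-phosphogluconate dehydrogenase, the second NADPH-producing step of the oxidative branch. It had 337.3, 449.9, 417.2 and 510.1 CPM in HFD unmatched, 1, 2 and 3, against 186.9, 161.3, 145.2 and 173.6 CPM in normal diet 1 to 4. The 4 normal diet libraries were tightly grouped and all below the lowest HFD library. Pgd rose by 1.36 on the log2 scale (SE 0.166, adjusted p = 0.000417) and ranked 68 among all 17535 genes by p.

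G6pdx (chrX:74409483-74429194) encodes glucose-6-phosphate dehydrogenase, which opens the pathway. It had 416.5, 421.4, 427.4 and 490 CPM in HFD unmatched, 1, 2 and 3, against 242, 143.8, 184.5 and 263.2 CPM in normal diet 1 to 4. The groups did not overlap, and G6pdx rose by 1.07 on the log2 scale (SE 0.23, adjusted p = 0.00603).

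Me1 (chr9:86581371-86695953), the cytosolic malic enzyme, had 494.2, 622.9, 570 and 851.9 CPM in HFD unmatched, 1, 2 and 3, against 551.5, 219.8, 217.2 and 319 CPM in normal diet 1 to 4. Only normal diet 1 reached into the HFD range. Me1 rose by 0.96 on the log2 scale (SE 0.283, adjusted p = 0.0275). The call was lost in 8 of the 24 alternatives, with adjusted p-values up to 0.246. The fit with the 2 groups alone was among them (adjusted p = 0.0581). The call was also lost on leaving out normal diet 2, 3 or 4 or HFD 1 or 3, with adjusted p-values of 0.0767, 0.0719, 0.0607, 0.0559 and 0.0917.

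Of the regulators, Srebf1 (chr11:60199089-60222581) had 344.7, 295.7, 265.7 and 234.4 CPM in HFD unmatched, 1, 2 and 3, against 199.9, 183.7, 163.7 and 216.5 CPM in normal diet 1 to 4. The groups did not overlap, though HFD 3 lay close to normal diet 4. Srebf1 rose by 0.58 on the log2 scale (SE 0.158, adjusted p = 0.0189). Without HFD unmatched, the highest library, the adjusted p was 0.0502, and without normal diet 3 it was 0.0539. Mlxipl (chr5:135089890-135138382) had 50.4, 44.6, 36.7 and 33.4 CPM in HFD unmatched, 1, 2 and 3, against 64.1, 51.2, 41.3 and 80.7 CPM in normal diet 1 to 4. The groups overlapped, and the log2 fold change was -0.52 (SE 0.201, adjusted p = 0.0777). Leaving out normal diet 3 or HFD unmatched gave adjusted p-values of 0.028 and 0.0403.

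The opposite direction of the carboxylases and of Pgd was visible within single libraries, as ratios of counts that need no scaling between libraries. Acacb counts per Pgd count were 1.48, 0.46, 0.511 and 0.517 in HFD unmatched, 1, 2 and 3, against 5.96, 5.88, 7.42 and 5.11 in normal diet 1 to 4. The summed carboxylase counts per Fasn count averaged 0.291 ± 0.0963 in metformin, 0.351 ± 0.113 in resveratrol, 0.146 ± 0.0823 in HFD and 0.699 ± 0.367 in normal diet libraries (SD, n = 4, 3, 4 and 4). These ratios were chosen after the fold changes were seen and are given without a test.

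**Figure D2:**
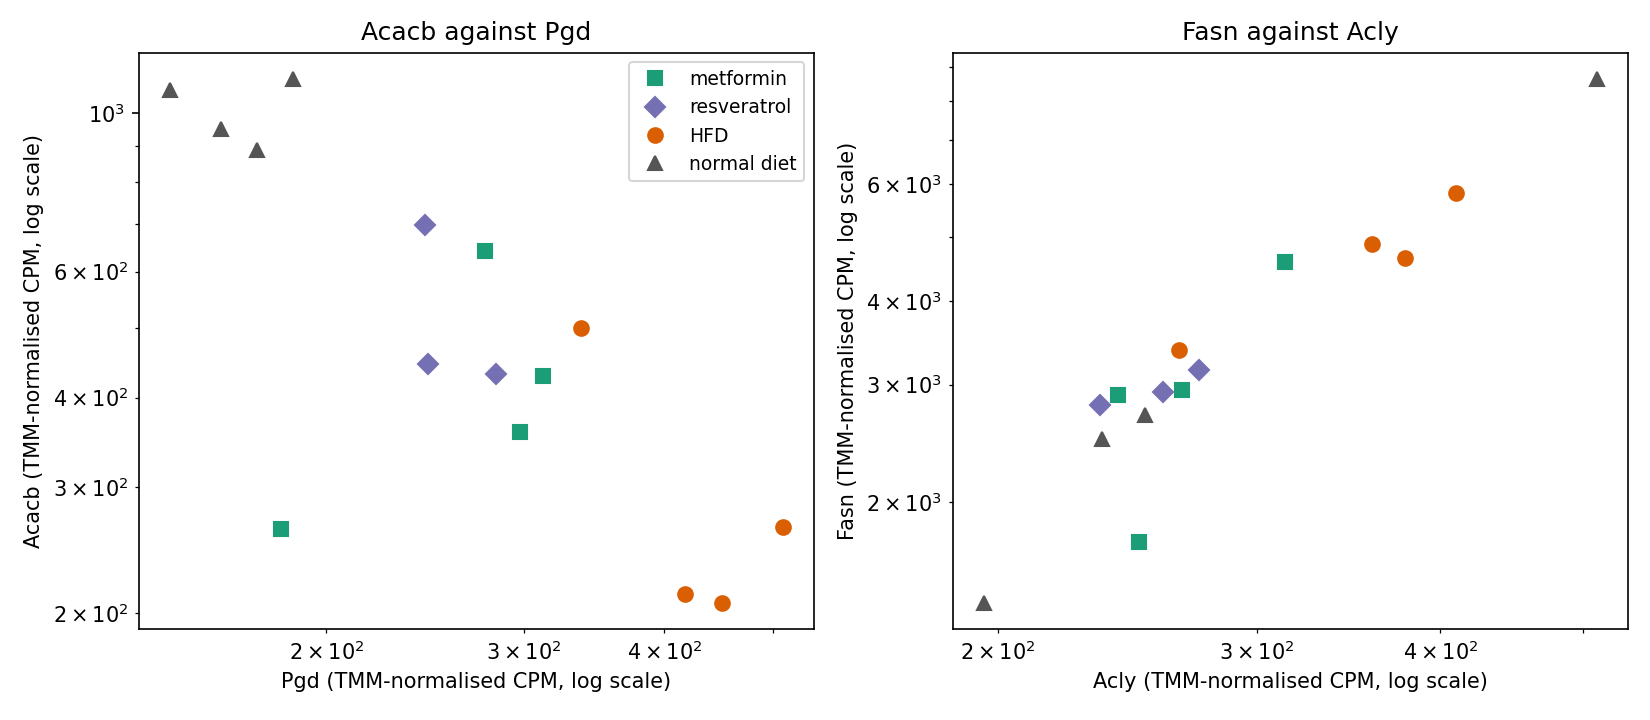
Acacb against Pgd and Fasn against Acly in TMM-normalised CPM on log axes, one point per library, with symbols for the 4 groups. HFD 1 to 3 lie at low Acacb and high Pgd and the normal diet libraries at the other end (Pearson r = -0.779), while Fasn and Acly run along one line in which normal diet libraries hold both ends (r = 0.941).

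The windows before the annotated starts of 3 genes that behaved differently under HFD are shown: Pgd, which rose, Acacb, which fell, and Fasn, the most abundant member, whose groups overlapped. For these 3 the RefSeq start (GRCm38.p6) lies within 2 bases of the start of the transcript holding most counts. The 250 bases before the start are given 5′ to 3′ on the gene's strand, for Pgd at chr4:149166706-149166955 (minus), Acacb at chr5:114165268-114165517 (plus) and Fasn at chr11:120824548-120824797 (minus). Capitals mark matches on either strand to CCAAT (the CCAAT box bound by NF-Y) or GGGCGG (the GC box bound by Sp1). No match to CACGTG (the E-box bound by ChREBP and USF) or to CACNCCA (a short form of the sterol element bound by SREBP) was found in these 3 windows.
Pgd: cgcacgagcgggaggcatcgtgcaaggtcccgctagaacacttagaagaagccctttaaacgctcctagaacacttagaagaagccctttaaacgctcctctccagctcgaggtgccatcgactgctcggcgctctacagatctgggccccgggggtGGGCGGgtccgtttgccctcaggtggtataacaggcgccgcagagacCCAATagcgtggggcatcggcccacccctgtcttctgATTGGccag
Acacb: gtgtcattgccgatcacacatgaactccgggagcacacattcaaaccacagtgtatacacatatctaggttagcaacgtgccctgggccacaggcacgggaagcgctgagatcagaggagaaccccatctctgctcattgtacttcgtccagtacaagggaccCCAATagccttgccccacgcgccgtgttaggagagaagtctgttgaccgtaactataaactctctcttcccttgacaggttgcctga
Fasn: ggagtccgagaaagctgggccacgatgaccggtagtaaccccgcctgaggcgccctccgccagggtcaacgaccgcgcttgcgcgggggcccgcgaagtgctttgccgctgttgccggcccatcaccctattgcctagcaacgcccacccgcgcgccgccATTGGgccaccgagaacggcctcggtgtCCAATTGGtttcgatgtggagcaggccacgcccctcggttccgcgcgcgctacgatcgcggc
Pgd held 2 CCAAT matches and 1 GC box, Acacb 1 CCAAT match, and Fasn 3 CCAAT matches, of which 2 share letters. Of all 32851 windows of this length, 33.8% hold CCAAT, 32.7% the GC box, 6.02% the E-box and 15.6% the sterol element letters. RefSeq start windows were found for all 10 genes, 15 in all. The E-box occurred in 1 of the 15, before the upstream start of Mlxipl at position 135089890 of chromosome 5, and the sterol element in 2, before the other Mlxipl start and before a second Pgd start. A match is a description of letters and not a site shown to be bound.

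Counts per transcript showed which starts the libraries used, as the authors' counting assigned them. The transcript that begins at the upstream Mlxipl exon, the start known for the short ChREBP-beta form, held 17 of 13032 Mlxipl counts over all 16 libraries (0.13%). Its share averaged 0.119% in metformin, 0.0973% in resveratrol, 0% in HFD and 0.32% in normal diet libraries, too few counts to compare groups. The main Acacb transcript held 83.2% to 90.3% of the gene's counts in the 15 libraries and 45% in resveratrol 4. The main Pgd transcript averaged 89.6% in metformin, 88% in resveratrol, 93.1% in HFD and 85% in normal diet libraries. Fasn counts were divided between 2 transcripts, of which the larger held 53% to 62.2%, and how reads common to both were divided is not stated in the labels or headers.

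Metformin on the diet was compared with the diet alone to ask whether the drug moved the pathway. Only Pgd passed the test, and it fell. That is 1 of 10 genes called, against 13.9% of all genes called in this comparison and 7.85% called lower, a share near the background. The groups did not overlap for 2 genes, Pgd and G6pdx, against 17% of all genes. The median log2 fold change was -0.47 over the 10 genes and 0.04 over all genes.

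Pgd had 276.9, 297.6, 182.4 and 311.6 CPM in metformin 1, unmatched, 2 and 4, against the 337.3 to 510.1 CPM of the HFD libraries. All 4 metformin libraries lay below all 4 HFD libraries, with metformin 2 the lowest. Pgd fell by 0.68 on the log2 scale (SE 0.164, adjusted p = 0.0221). Leaving out HFD 1, 2 or 3, the libraries rich in macrophage markers, gave log2 fold changes of -0.66, -0.69 and -0.58 with adjusted p-values of 0.0649, 0.0555 and 0.076, so the call was lost while the fall was about as large. The part of these markers in the call was not tested. Without the libraries rich in ciliated epithelium markers, which leaves 1 metformin library assumed to vary like the others, the log2 fold change was -0.63 and the adjusted p 0.28. Metformin 2 had the lowest adipocyte marker sum, and with libraries scaled to adipocyte markers the log2 fold change was -0.60 (adjusted p = 0.116).

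G6pdx had 362.4, 297.3, 170.9 and 289.3 CPM in metformin 1, unmatched, 2 and 4, all below the 416.5 CPM of the lowest HFD library. Its log2 fold change of -0.65 (SE 0.228) missed the threshold with an adjusted p of 0.0677, and passed it without normal diet 2 (0.0472) or metformin 1 (0.0356). Without metformin 2 it was -0.48 (adjusted p = 0.148), and without the libraries rich in ciliated epithelium markers -0.27 (adjusted p = 0.473). The part of these markers was not tested. Me1 had 378.4, 387.9, 320.1 and 555.1 CPM in the same libraries, of which metformin 4 lay within the HFD range, and a log2 fold change of -0.63 (SE 0.282, adjusted p = 0.13). Fasn, with 2890, 2946, 1742 and 4586 CPM, and Acly, with 241.5, 266.9, 249.6 and 313.7 CPM, had log2 fold changes of -0.62 (SE 0.457, adjusted p = 0.357) and -0.40 (SE 0.249, adjusted p = 0.273).

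The carboxylases had higher means in metformin libraries, at 422.4 ± 160.7 CPM for Acacb, against 296 ± 138.8 CPM in HFD libraries (SD, n = 4 each), but did not pass the test. Acacb had 640.8, 358, 262.3 and 428.7 CPM in metformin 1, unmatched, 2 and 4. These values overlap with the HFD group through HFD unmatched at 500.6 CPM. They also overlap without that library, since metformin 2 lay below HFD 3 at 263.5 CPM. The log2 fold change was 0.51 (SE 0.311, adjusted p = 0.259), and without HFD unmatched it was 0.91 with an adjusted p of 0.0378. Without metformin 1 it was 0.24 with an adjusted p of 0.597. For Acaca the value was 0.31 (SE 0.296, adjusted p = 0.494), and 0.14 without metformin 1 (adjusted p = 0.771). The log2 fold changes of Elovl6, Mlxipl and Srebf1 were -0.55, 0.20 and -0.11, with adjusted p-values of 0.449, 0.515 and 0.654.

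Resveratrol on the diet was compared with the diet alone for the same question, with 3 libraries. Again only Pgd passed the test, with 283.1, 246.2 and 245 CPM in resveratrol 1 to 3, each below the 337.3 CPM of the lowest HFD library. Pgd fell by 0.73 on the log2 scale (SE 0.179, adjusted p = 0.0418). This is 1 of 10 genes called, against 4.17% of all genes called and 3.09% called lower. The call was lost in 14 of 24 alternatives, with adjusted p-values up to 0.16. Leaving out HFD 1, 2 or 3, resveratrol 1, 2 or 3, normal diet 4, metformin 1 or metformin unmatched each removed it. Both drug comparisons use the same HFD libraries, so their values are given side by side and not as separate evidence.

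Groups did not overlap for 5 of the 10 genes in this comparison, against 21.5% of all genes, and 3 resveratrol libraries separate more easily than 4. Acaca, with 446.9, 417.5 and 647.3 CPM in resveratrol 1 to 3, lay above all HFD libraries, with a log2 fold change of 0.61 (SE 0.318, adjusted p = 0.278). Fasn, with 2927, 3156 and 2797 CPM, lay below all of them, at -0.66 (SE 0.499, adjusted p = 0.456). Me1, with 379.5, 351.8 and 378 CPM, and G6pdx, with 350.6, 243.4 and 362.7 CPM, also lay below, at -0.78 (SE 0.309, adjusted p = 0.164) and -0.46 (SE 0.248, adjusted p = 0.29). Acacb, with 432.1, 445.2 and 696.4 CPM, overlapped with HFD unmatched, and its log2 fold change of 0.83 (SE 0.333, adjusted p = 0.171) became 1.22 with an adjusted p of 0.0164 without that library and 0.57 with an adjusted p of 0.427 without resveratrol 3. For Acly, Elovl6, Mlxipl and Srebf1 the log2 fold changes were -0.47, -0.98, 0.08 and -0.20, with adjusted p-values of 0.328, 0.292, 0.857 and 0.517.

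**Figure D3:**
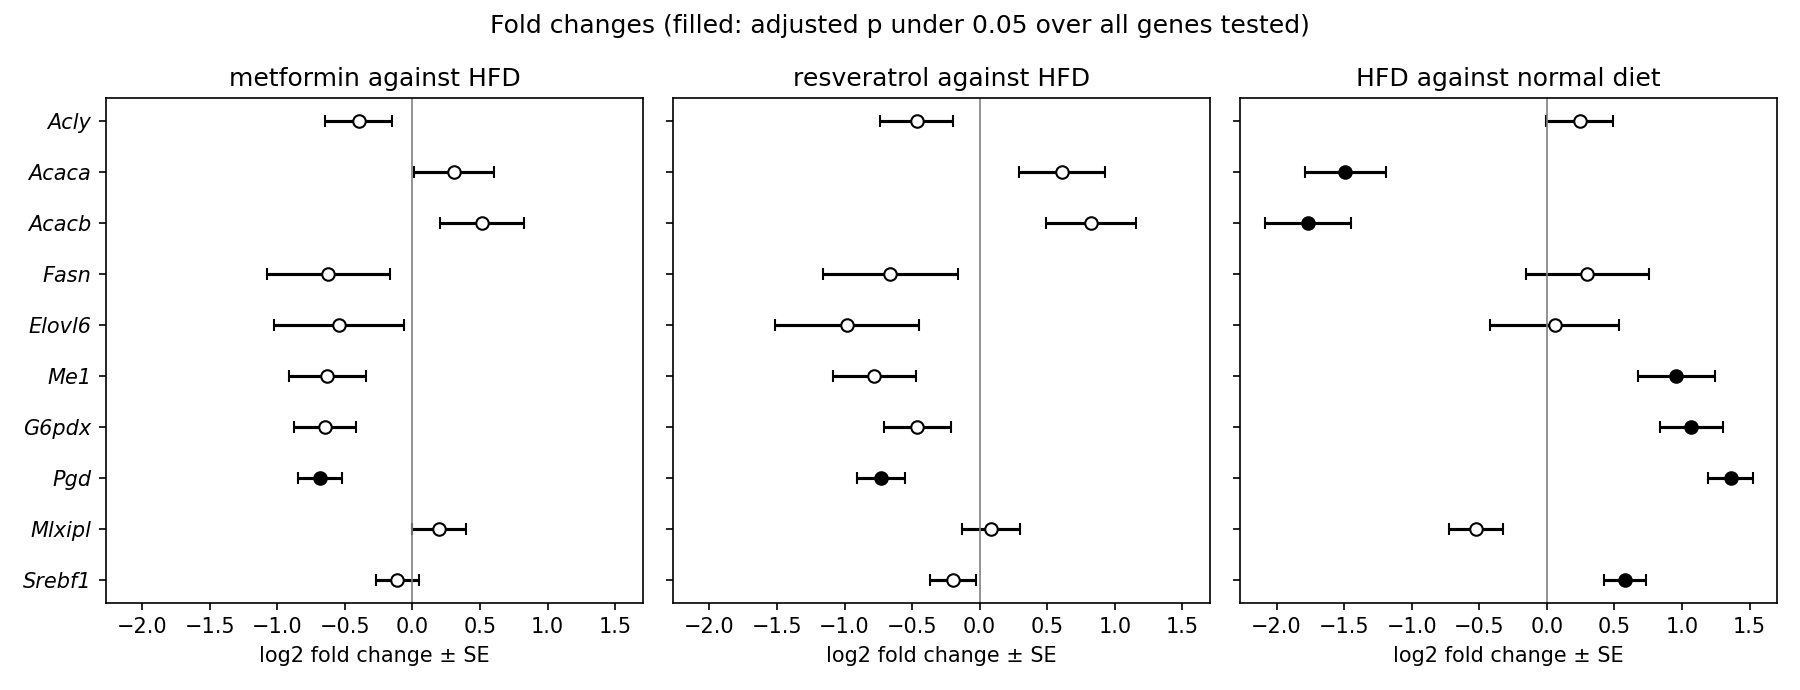
Log2 fold changes with their SE for the 10 genes in 3 comparisons, with filled points for an adjusted p under 0.05 over all genes tested. The 3 comparisons share the HFD libraries. Only Pgd is filled in each drug comparison, and 6 genes are filled for HFD against normal diet.

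Set against the normal diet, neither drug group had a called gene among the 10, against 1.71% of all genes called for metformin and 0.148% for resveratrol. At an unadjusted p under 0.05 edgeR had 4 of the 10 for metformin and 5 for resveratrol, and DESeq2 called 4 and 1 at an adjusted p under 0.05. No share of all genes at these 2 settings stands beside these counts, so nothing particular to the 10 genes is read from them. In metformin against normal diet, Acacb had a log2 fold change of -1.25 (SE 0.315, adjusted p = 0.0636), Acaca -1.19 (SE 0.3, adjusted p = 0.0643) and Pgd 0.68 (SE 0.164, adjusted p = 0.0565). All metformin libraries lay below all normal diet libraries for Acaca and Acacb, 2 of 10 genes without overlap against 9.3% of all genes, while Pgd of metformin 2 lay inside the normal diet range. Leaving out HFD unmatched, a library of neither group, repeats the filter, the scaling and the estimate of the shared spread. The adjusted p-values of Acacb and Pgd were then 0.024 and 0.0404 (edgeR). Acacb passed without metformin 1 (0.0356), and Pgd and Srebf1 passed without metformin 2 (0.0109 and 0.0471). In resveratrol against normal diet the values were -0.94 for Acacb (SE 0.343, adjusted p = 0.35), -0.89 for Acaca (SE 0.327, adjusted p = 0.358) and 0.63 for Pgd (SE 0.175, adjusted p = 0.196). The groups did not overlap for Acacb, Pgd and Srebf1, 3 of 10 genes against 12.6% of all genes.

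Over the 4 groups Acacb averaged 422.4 ± 160.7 CPM in metformin, 524.5 ± 149 in resveratrol, 296 ± 138.8 in HFD and 1007 ± 106.2 CPM in normal diet libraries (SD, n = 4, 3, 4 and 4). The order from the lowest is HFD, metformin, resveratrol and normal diet, and of the 6 pairs only HFD and normal diet differed at the threshold. Pgd averaged 267.1 ± 58.27 CPM in metformin, 258.1 ± 21.67 in resveratrol, 428.6 ± 72.05 in HFD and 166.8 ± 17.79 CPM in normal diet libraries. Its order from the lowest is normal diet, resveratrol, metformin and HFD. HFD differed from each of the other 3 groups at the threshold, and metformin and resveratrol, neighbours in the order, had a log2 difference of 0.05 (SE 0.176, adjusted p = 0.945). In metformin against resveratrol no gene of the 10 was called, none had an unadjusted p under 0.05, DESeq2 called none, and the share of all genes called was 0.0114%. The largest differences, for Elovl6 at 0.44 (SE 0.524) and Acacb at -0.31 (SE 0.333), were within their errors.

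Across the 15 libraries the genes fell into sets that varied together. Pearson correlations of log2 CPM are descriptions over libraries that share groups and tissue make-up. Fasn, Acly and Elovl6 were closely related, with r of 0.941 for Acly and Fasn, 0.898 for Acly and Elovl6 and 0.831 for Fasn and Elovl6. G6pdx and Pgd had r = 0.885, Me1 and Pgd 0.852, and Me1 and Fasn 0.846. Acaca and Acacb had r = 0.889 with each other and negative values with Pgd, at -0.638 and -0.779. Acacb and Acaca correlated with the adipocyte marker sum at 0.637 and 0.713 and with the macrophage marker sum at -0.571 and -0.461, and Pgd, Me1 and G6pdx with the macrophage sum at 0.679, 0.583 and 0.577. G6pdx correlated with the ciliated epithelium marker sum at -0.655.

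**Figure D4:**
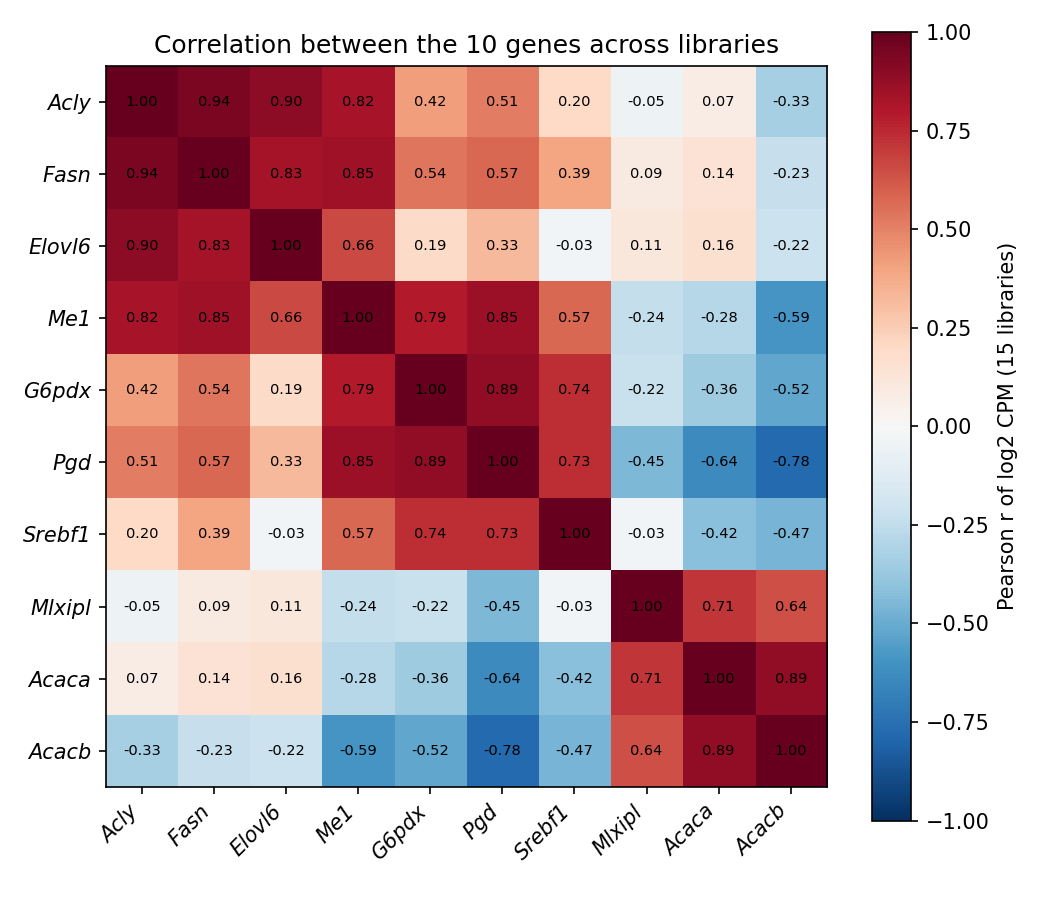
Pearson correlations of log2 CPM between the 10 genes over 15 libraries, from -1 (blue) to 1 (red). Acly, Fasn and Elovl6 form one red block and Acaca and Acacb another, and Pgd has negative values with both carboxylases.

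The genes nearest to the mean z-score of the 10 were Gm10221 (r = 0.904), Rn7s6 (0.892), Gm7336 (0.884), the mitochondrial citrate carrier Slc25a1 (0.881) and BC002163 (0.87), over 15 libraries. For single members the nearest genes included Acss2, a cytosolic acetyl-CoA synthetase, for Acly (0.861), Slc25a1 for Fasn (0.89), the mitochondrial aldehyde dehydrogenase Aldh2 for Acacb (0.963), the antioxidant enzyme Prdx5 for G6pdx (0.979) and the secreted protein gene Olfm1 for Pgd (0.986).

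The steps around the core pathway were followed with 5 lists of 64 genes in all. In HFD against normal diet 13 of the 64 rose and 4 fell, against 13.8% of all genes called higher and 9.34% called lower, with a median log2 fold change of 0.06 against -0.04 over all genes. The counts of the single lists stand against the same shares, and nothing particular to a list is read from them. Of 13 genes of acetyl-CoA and citrate supply 4 rose and 1 fell. The dicarboxylate carrier Slc25a10 averaged 194 ± 41.6 CPM in HFD and 40.5 ± 3.11 CPM in normal diet libraries (log2 fold change 2.26, adjusted p = 0.00102). Acss2 rose by 0.91 and the cytosolic malate dehydrogenase Mdh1 by 0.52, and Pdha1, a subunit of pyruvate dehydrogenase, fell by 0.59 on the log2 scale (adjusted p = 0.042, 0.0184 and 0.0288).

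Of 10 other genes of the pentose phosphate pathway and NADPH supply 2 rose and 1 fell. Idh1, the cytosolic NADP-dependent isocitrate dehydrogenase, averaged 288 ± 69 CPM in HFD and 116 ± 16.2 CPM in normal diet libraries (log2 fold change 1.31, adjusted p = 0.000441). The mitochondrial malic enzyme Me2 rose by 0.27 and transketolase, Tkt, fell by 0.86 on the log2 scale (adjusted p = 0.0341 and 0.0274). Pgd and G6pdx belong to the oxidative branch of the pathway and Tkt to the non-oxidative branch.

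Of 16 genes of the SREBP, ChREBP and LXR circuit 2 rose and none fell. Insig1, an SREBP target that retains SREBP in the endoplasmic reticulum, averaged 518 ± 202 CPM in HFD and 95.4 ± 6.73 CPM in normal diet libraries (log2 fold change 2.44, adjusted p = 0.000413). The transcription factor Usf1 rose by 0.27 on the log2 scale (adjusted p = 0.0402). Of 13 genes of desaturation and elongation 3 rose and 1 fell. Scd2, a stearoyl-CoA desaturase, averaged 1080 ± 444 CPM in HFD and 122 ± 83.1 CPM in normal diet libraries (log2 fold change 3.14, adjusted p = 0.00188). Scd1, another stearoyl-CoA desaturase, went the other way, at 12000 ± 1430 CPM in HFD and 20000 ± 7340 CPM in normal diet libraries. It was not called (log2 fold change -0.73, adjusted p = 0.0693, edgeR), though the groups did not overlap. The very long chain elongation enzymes Hsd17b12 and Tecr rose by 0.85 and 0.68 and the polyunsaturated fatty acid desaturase Fads1 fell by 0.92 (adjusted p = 0.0429, 0.0143 and 0.00751). Of 12 genes of glucose entry and ChREBP targets 2 rose and 1 fell: the glycolytic enzymes Aldoa and Pkm rose by 0.75 and 0.61, and Txnip, a glucose-induced ChREBP target, fell by 0.82 (adjusted p = 0.023, 0.00365 and 0.00635).

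In metformin against HFD 1 of the 64 genes rose and 10 fell, against 13.9% of all genes called and 7.85% called lower, with a median log2 fold change of -0.09 against 0.04 over all genes. Insig1 averaged 211 ± 59.1 CPM in metformin and 518 ± 202 CPM in HFD libraries (log2 fold change -1.30, adjusted p = 0.0165). Acss2 fell by 1.00, Idh1 by 0.66, Tecr by 0.61, Pkm by 0.55, Pfkp, a phosphofructokinase, by 0.46 and the 6-phosphogluconolactonase gene Pgls by 0.41 on the log2 scale (adjusted p = 0.0449, 0.0221, 0.039, 0.0152, 0.038 and 0.0428). Usf1, Usf2 and the carrier Slc25a11 fell by 0.34 to 0.35, and Fads1 rose by 0.70 (adjusted p = 0.042). In resveratrol against HFD Insig1 averaged 182 ± 50.2 CPM in resveratrol and 518 ± 202 CPM in HFD libraries (log2 fold change -1.51, adjusted p = 0.0359). Pkm fell by 0.54 (adjusted p = 0.0379), and the other 62 genes were not called, against 4.17% of all genes called. In metformin against normal diet only Slc25a10 was called, at 121 ± 61.2 CPM in metformin and 40.5 ± 3.11 CPM in normal diet libraries (log2 fold change 1.57, adjusted p = 0.0367), against 1.71% of all genes called. In the 2 remaining comparisons edgeR called none of the 64. The shares of all genes called were 0.148% for resveratrol against normal diet and 0.0114% for metformin against resveratrol. At an unadjusted p under 0.05 edgeR had 9 and 1 of the 64 in these comparisons, and DESeq2 called 2 and 0. No share of all genes at these other settings stands beside these counts, so nothing particular to the lists is read from them.

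**Figure D5:**
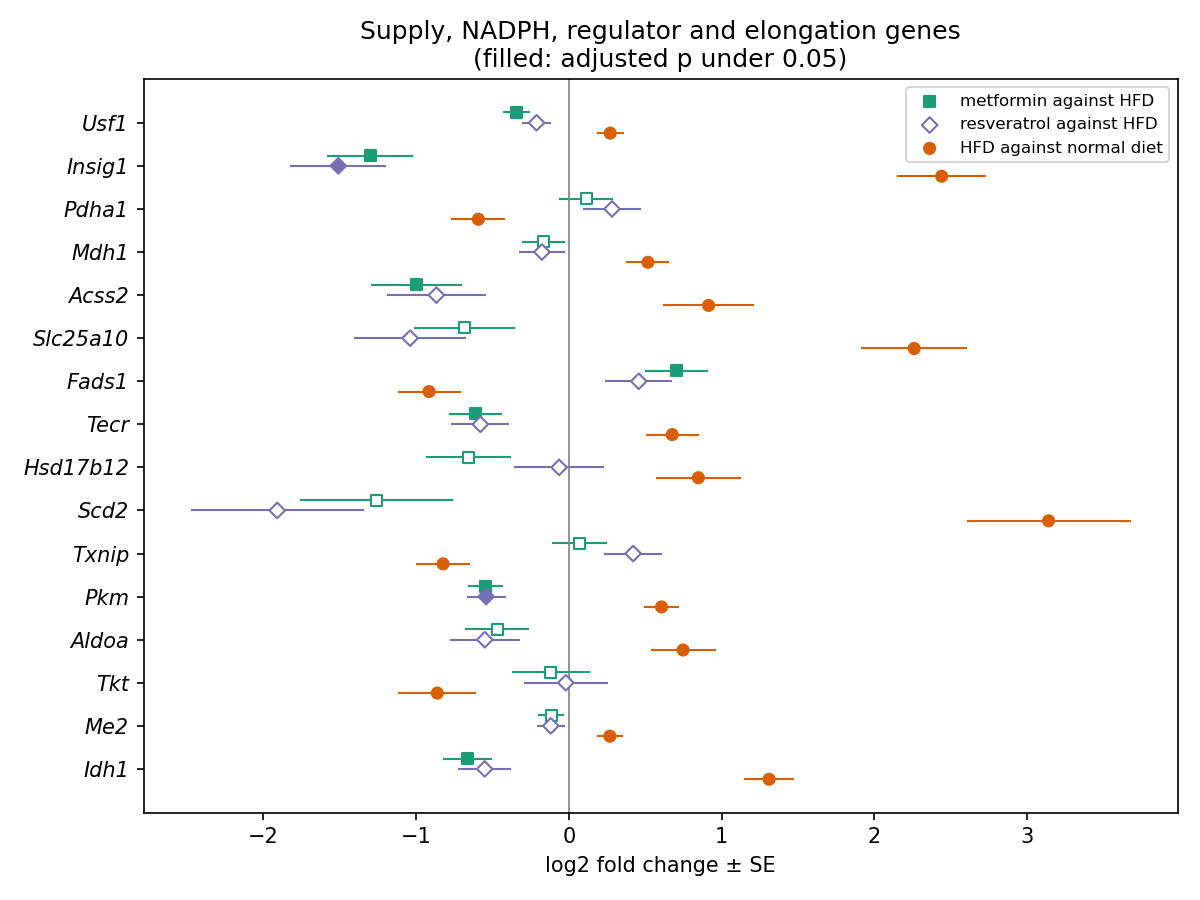
Log2 fold changes with SE of the 16 called list genes named for HFD against normal diet. The 3 comparisons shown share the HFD libraries, and filled symbols mark an adjusted p under 0.05. Scd2, Insig1 and Slc25a10 lie farthest to the right for HFD against normal diet, and Insig1 and Pkm are the genes filled for both drugs.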

How the data were processed

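Whole-number counts per transcript were deposited by the authors in 1 mRNA and 1 lncRNA table, with FPKM values beside them, per the file headers. Per the submitters' processing notes, fastp, HISAT2 and genome build GRCm38 were used. The counting tool, strand setting and annotation release are not given in the sources used. Reads that 2 near-identical, antisense or overlapping genes share could therefore not be separated. The mRNA header had fewer names than cells, and the columns were checked against totals implied by the deposited lncRNA FPKM values (largest difference 0.0418%, at least 0.492% for any other library). A total of 5 broken mRNA records was rejoined, and 18 columns of per-sample values were not used. Of 16 count columns 14 matched a title. The other 2 gave their group only.

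Counts of 91879 transcripts were summed to 27150 genes. edgeR 4.0.16 in R 4.3.3 (filterByExpr, TMM, robust quasi-likelihood fit, group as the only factor) was run on 15 libraries, leaving out the library with Crisp1 above 1000 CPM. Tests were two-sided, and p-values were adjusted by Benjamini-Hochberg over the 17535 genes of each of 6 comparisons. SE is the log2 fold change divided by the square root of F. Fits were tested on simulated data. Marker sums carry no TMM factor. Correlations use log2 CPM with a prior count of 2. DESeq2 1.42.0, other scalings, filters and library sets were alternatives.

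All 10 members are named in every comparison for which they are described. Of the 5 lists, up to 3 called genes per list and direction with the largest change are named. Scd1, which was not called, is named beside Scd2. The genes most like the members are the 5 with the highest correlation to the members' mean z-score, and for single members some of the nearest 3. The members and lists were chosen with earlier results of these data known.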

Additional observations from a re-analysis of the deposited data

Results flagged for a closer look

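In 1 of 30 sets of 4 values examined with Dixon's test, the highest value stood apart from the others: G6pdx had 490 CPM in HFD 3, and the next HFD library had 427.4 CPM. The gap was 0.853 of the group's range. Chance alone flags about 1 in 20 such groups.

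Resveratrol 4, which was left out of the comparisons, had 951 CPM of Acly, 255 CPM of Elovl6 and 332 CPM of Srebf1 (without a TMM factor), above the highest normal diet libraries at 511.3, 94.05 and 216.5 CPM. The same library had 28.2 CPM of Acacb, 47 CPM of Me1, 122 CPM of Pgd, 138 CPM of Acaca and 1360 CPM of Fasn, each below the other 15. Its adipocyte markers summed to 1016 CPM. It had 1918 Acaca counts and 0 counts of the pseudogene Gm5182, which had 2657 to 13280 counts in the others.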

How the results depend on the processing

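No paired analysis was possible because the libraries carry codes of their own and share no replicate numbers.

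In HFD against normal diet Acaca, G6pdx and Pgd passed under all 24 alternatives, Acacb under 23 (not with all 16 libraries, adjusted p = 0.101), Srebf1 under 20 and Me1 under 16. Pgd passed under 17 in metformin against HFD and under 10 in resveratrol against HFD. Of 1440 recomputed member fold changes 37 changed sign, with no adjusted p under 0.05 among them. The main counts of genes called, in the order HFD against normal diet, metformin against HFD, resveratrol against HFD, metformin against normal diet, resveratrol against normal diet and metformin against resveratrol, were 4050, 2445, 732, 299, 26 and 2. Where a setting below gives no value for a comparison, the count was within 1.5 times of these.

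With all 16 libraries 3 members were called in HFD against normal diet and 0 in metformin and in resveratrol against HFD, and the counts of genes were 1523, 89, 380, 1, 0 and 0. With libraries scaled to adipocyte markers, members numbered 0 in metformin against HFD, 0 in resveratrol against HFD and 4 in metformin against normal diet, and genes 1420, 10, 6 and 170 in the first 4 comparisons and 1 in the last. This scaling moved the median log2 fold change of all genes to 0.20 in metformin against HFD, 0.31 in metformin against normal diet and 0.35 in metformin against resveratrol. Without the libraries rich in ciliated epithelium markers, members numbered 0 in both drug comparisons with HFD, and genes 18, 17, 33 and 41 in the second to the fifth comparison. In the fit of the 2 groups alone members numbered 0 in both, and genes 1151, 1, 28, 0 and 0 from the second comparison on. Without the unmatched columns members numbered 2 in both, and genes 1855 in resveratrol against HFD, 131 in metformin and 8 in resveratrol against normal diet. With no filter on low counts Pgd was lost in resveratrol against HFD (0 members), and genes numbered 1541 in metformin against HFD, 351 in resveratrol against HFD, 15 in resveratrol against normal diet and 0 in metformin against resveratrol. DESeq2 called 2 members and 4312 genes in metformin against HFD, 2152 genes in resveratrol against HFD, 4 members and 1116 genes in metformin against normal diet, 1 member and 399 genes in resveratrol against normal diet, and 29 genes in metformin against resveratrol.

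Leaving out 1 library at a time gave 5 to 8 members in HFD against normal diet, 0 to 2 in metformin against HFD, in resveratrol against HFD and in metformin against normal diet, and 0 in the other comparisons. The counts of genes were 2720 to 4979, 469 to 3710, 1 to 2066, 91 to 423, 6 to 120 and 0 to 3. Drug calls against HFD therefore depend on single libraries, HFD 1 to 3 among them, and the cause was not tested.

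Fold changes that changed sign were close to 0 in most cases. With all 16 libraries Acly and Elovl6 were 0.22 and 0.73 in resveratrol against HFD, 0.47 and 0.78 in resveratrol against normal diet (Me1 -0.18) and -0.62 and -1.27 in metformin against resveratrol (Acacb 0.079), where the levels of resveratrol 4 enter. Scaled to adipocyte markers, Mlxipl was -0.0756 in resveratrol against HFD, Acly 0.19 in metformin against normal diet and G6pdx 0.0887 in metformin against resveratrol. Without the ciliated-rich libraries Elovl6 was -0.0539 in HFD against normal diet, Srebf1 0.12 in metformin against HFD, and Acly, Acacb, Me1 and G6pdx were -0.0314, 0.185, -0.00133 and 0.0231 in metformin against resveratrol. Without the unmatched columns Srebf1 was 0.0197 in metformin against HFD and Pgd -0.0059 in metformin against resveratrol. Leaving out 1 library at a time, Elovl6 was -0.30 to 0.70 in HFD against normal diet and -0.79 to 0.17 in metformin against normal diet, and Srebf1 -0.19 to 0.0082 in metformin against HFD and -0.0020 to 0.22 in metformin against resveratrol. Acly was -0.31 to 0.23 and Fasn -0.60 to 0.47 in metformin against normal diet, and -0.38 to 0.17 and -0.64 to 0.43 in resveratrol against normal diet. In metformin against resveratrol Pgd was -0.0322 to 0.19, Acly -0.0179 to 0.12, Fasn -0.23 to 0.23 and Me1 -0.0297 to 0.25.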

Other observations

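A total of 19 lncRNA transcripts overlapped 7 of the 10 genes. The largest relative to its gene was in Elovl6, with 4.13% of the gene's counts over all 16 libraries. In no group on the diet were all libraries above all normal diet libraries for any of the 19. Whether all libraries of a group lay below all normal diet libraries was not examined. No share over all lncRNA transcripts was computed. The highest level was that of NONMMUT011169.2 within Acaca, at 1.17 to 19.7 CPM over the 15 libraries. Strand was not available, so such reads may belong to Acaca.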
